A study of Ursus arctos with 12 samples.

Results

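The genes described here are 4 genes of the beta subunit family of the sodium pump, ATP1B1, ATP1B2, ATP1B3 and ATP1B4, and 3 genes of the FXYD family of small pump regulators, FXYD1 (phospholemman), FXYD5 and FXYD6. They were taken by gene symbol from the deposited table of read counts, in which all 7 were found among 30249 genes, and all 7 were among the 17290 genes with at least 30 reads over the 12 libraries. The muscle was vastus lateralis, in the thigh, of 6 free-ranging brown bears (Ursus arctos) 2 to 3 years old. A biopsy was frozen from each bear in winter, during hibernation, and another in summer, when the same bear was active, so that each season held 6 libraries and each bear served as its own control. The study describes no experimental treatment of the bears, which were captured and anesthetized for sampling. Season was the only difference between the groups that the labels give. The comparison asks how the transcripts of the sodium pump differ between the muscle of hibernating bears and the same muscle in active life. Hibernating bears both fast and stay inactive for months, and the design cannot tell these apart.

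The sodium pump, or Na,K-ATPase, moves sodium out of the cell and potassium in at the cost of ATP, and in muscle it restores the ion gradients that each action potential runs down. A catalytic alpha subunit does the transport, and a beta subunit, a glycoprotein that crosses the membrane once, is needed to fold the alpha subunit and carry it to the cell surface. FXYD proteins are short single-pass proteins, named after a shared amino acid motif, that bind the assembled pump and tune its affinity or rate. Phospholemman is the main FXYD protein of heart and skeletal muscle: it inhibits the pump until protein kinase A or C phosphorylates its tail.

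Depth ran from 20191068 to 27283155 reads per library in summer and from 16742406 to 32140160 in winter. Levels are given in CPM, the reads of a gene relative to the size of its library, on library sizes scaled by the TMM method. Since they were not divided by transcript length, they compare 1 gene between libraries, not 2 genes with each other. The winter library of bear 1509 stood apart: on a principal component that held 14.6% of the variance it lay at −98.63 and the other 11 libraries between −8.16 and 29.4. It also held transcripts of nerve cells, which are described with FXYD7 below. Genes that lost their call without it are named, and shares, ratios, summed levels and correlations include it unless stated. As a check of the tissue, 12 skeletal muscle fibre genes were all present and together made up 106000 to 205500 CPM. The lowest of these sums was that of the winter library of bear 1509, and the other winter libraries held at least 133100 CPM. The skin keratin KRT5 had at most 1 read in a library.

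In winter, 3 of the 7 genes were higher (ATP1B1, ATP1B4 and FXYD1), 1 was lower (FXYD6) and 3 did not pass the test (ATP1B2, ATP1B3 and FXYD5), by edgeR's quasi-likelihood test at an adjusted p below 0.05. Among all genes tested, 39.5% were called, 19.6% as higher and 19.9% as lower in winter, so 4 called of 7 is read against a large seasonal background. The study itself set tighter limits (adjusted p under 0.01, with a winter level over 1.3 times or under 0.77 times that of summer). With these, ATP1B4, FXYD1 and FXYD6 were called, against 24% of all genes. The same 3 genes were those whose seasons did not overlap in any library, as in 17.3% of all genes. With the bear as a replicate block, which compares the libraries of each bear with each other, FXYD5 was called as well in edgeR (adjusted p = 0.0466), a fit that called 40.8% of all genes, but not in DESeq2 with the same block (adjusted p = 0.0566).

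**Figure D1:**
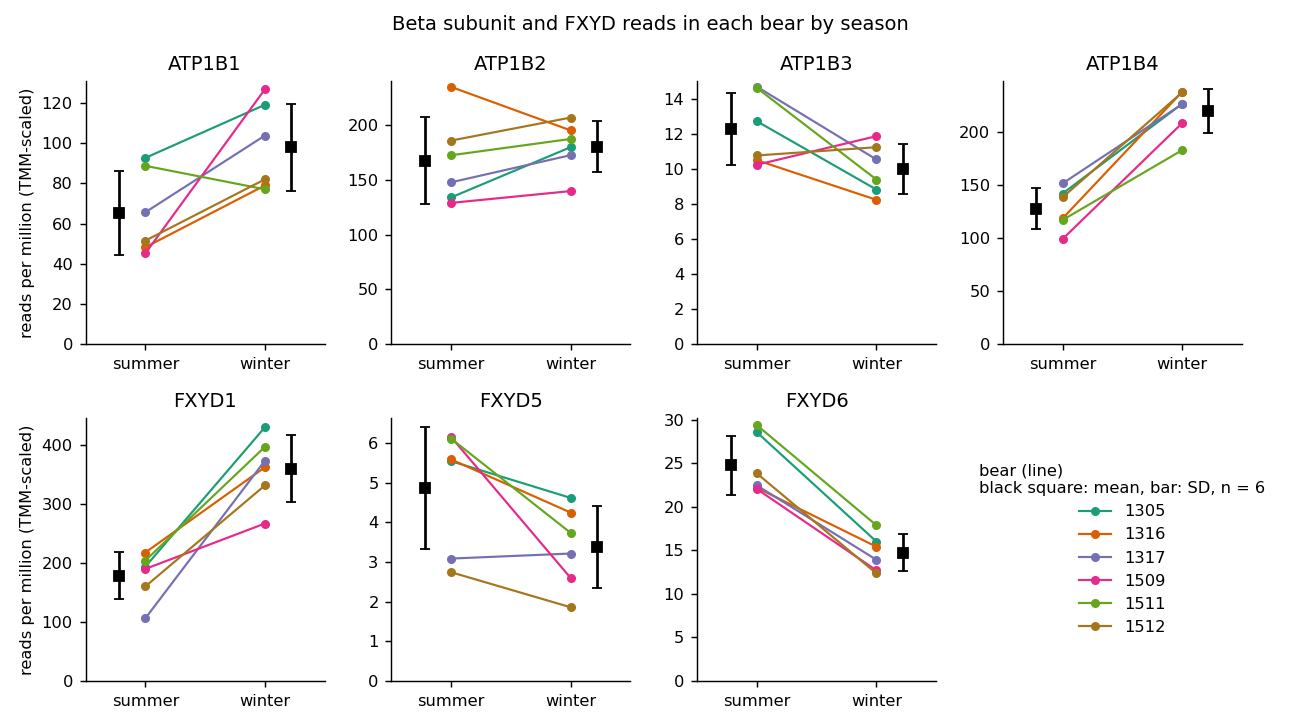
TMM-scaled CPM of the 7 genes in each library, with a coloured line joining the summer and winter library of a bear and a black square and bar for the mean and SD of 6 bears. ATP1B4 and FXYD1 rose and FXYD6 fell in 6 of 6 bears without overlap between the seasons, while the lines of ATP1B2 and ATP1B3 cross.

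ATP1B1 encodes the beta subunit that most tissues use. Its level ran from 45.1 to 92.7 CPM in summer (median 58.5) and from 77.1 to 126.8 CPM in winter (median 92.9). The winter levels of 3 bears lay above every summer level, and the other 3 lay within the summer range, so the groups overlapped. From a summer mean of 65.3 ± 20.9 CPM it rose to 98.0 ± 21.7 CPM (SD, n = 6 bears), by 1.5 times (log2 fold change 0.58, standard error 0.20, adjusted p = 0.0331). The blocked fit gave 0.61 on the log2 scale with an adjusted p of 0.0184. It was higher in 5 of 6 bears, and the widest difference, 1.49 on the log2 scale, was that of bear 1509, while bear 1511 went the other way at −0.20. The call was lost without bear 1316 (adjusted p = 0.0593), bear 1317 (0.0846), bear 1509 (0.113) or bear 1512 (0.0680), without the winter library of bear 1509 alone (0.0632), and with library totals in place of TMM (0.0803). Over all alternatives the adjusted p ran from 0.00276 to 0.113.

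ATP1B2, first known as an adhesion molecule on glia, had 2534 to 6353 reads per library. It lay between 129.0 and 234.9 CPM in summer (median 160.2) and between 139.8 and 206.9 CPM in winter (median 183.7). Every winter level fell within the summer range. Its log2 fold change of 0.11 (standard error 0.15) did not pass (adjusted p = 0.587, or 0.376 with the bear as a block), although 5 of 6 bears were higher and bear 1316, with the highest summer level, was lower.

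ATP1B3, a beta subunit found in many tissues, had only 156 to 366 reads per library. It ran from 10.2 to 14.7 CPM in summer (median 11.7) and from 8.23 to 11.9 CPM in winter (median 9.96). The winter levels of 3 bears were below all summer levels, and 4 of 6 bears were lower. The difference, −0.29 on the log2 scale (standard error 0.14), did not pass (adjusted p = 0.107, or 0.134 in the blocked fit).

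ATP1B4, or beta-m, is the muscle-specific member of the family. In placental mammals it is not part of the sodium pump but is held at the inner nuclear membrane, where it binds the transcriptional coregulator SNW1. Its level was 99.2 to 151.6 CPM in summer (median 128.6) and 183 to 238 CPM in winter (median 226.6), so that the lowest winter library was above the highest summer library. The mean rose from 127.8 ± 19.5 to 220.0 ± 21.1 CPM (SD, n = 6 bears), a 1.72-fold rise. The fit put this at 0.78 on the log2 scale (standard error 0.11), with an adjusted p of 0.000167, and of 0.000305 with the block. Single bears lay between 0.58 and 1.07 on the log2 scale, the narrowest range among the genes that rose. The call held in all 15 alternatives, with an adjusted p of at most 0.00133.

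FXYD1, phospholemman, had the largest rise of the 7 genes. Summer levels ran from 106.1 to 217.8 CPM (median 191.9) and winter levels from 267 to 430.3 CPM (median 368). Every winter library lay above every summer library, and the lowest summer library was that of bear 1317. The mean went from 178.7 ± 40.3 to 360.4 ± 56.5 CPM (SD, n = 6 bears), and the fitted fold change was 2.02. The log2 fold change was 1.01 (standard error 0.17) with an adjusted p of 0.000362, or 1.03 and 0.000636 in the blocked fit. Bears differed in its size, from 0.49 in bear 1509 to 1.81 in bear 1317 on the log2 scale. It too was called in all 15 alternatives, with log2 fold changes from 0.89 to 1.11 and an adjusted p of at most 0.00320.

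FXYD5, or dysadherin, is a heavily glycosylated FXYD protein known from epithelia, where it weakens cell adhesion. It had 47 to 153 reads per library, at 2.74 to 6.15 CPM in summer (median 5.56) and 1.86 to 4.61 CPM in winter (median 3.47). In summer 4 bears lay above 5 CPM and bears 1317 and 1512 near 3 CPM, so the seasons overlapped. It was lower in 5 of 6 bears, with bear 1317 the exception. The log2 fold change of −0.53 (standard error 0.26) did not pass without the block (adjusted p = 0.123) and passed with it in edgeR (−0.52, standard error 0.19, adjusted p = 0.0466). In DESeq2 with the same block FXYD5 did not pass (−0.51, standard error 0.22, adjusted p = 0.0566).

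FXYD6, or phosphohippolin, is best known from brain and sensory tissues. It had 230 to 784 reads per library, at 22.0 to 29.4 CPM in summer (median 23.1) and 12.3 to 17.9 CPM in winter (median 14.7). Every winter library was below every summer library. From a mean of 24.7 ± 3.3 CPM it fell to 14.7 ± 2.1 CPM (SD, n = 6 bears), to 0.594 of the summer level. The log2 fold change was −0.75 (standard error 0.12) with an adjusted p of 0.000353, or 0.000295 with the block, and the 6 bears lay close together, from −0.94 to −0.52. It was called lower in all 15 alternatives, with an adjusted p of at most 0.00244.

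**Figure D2:**
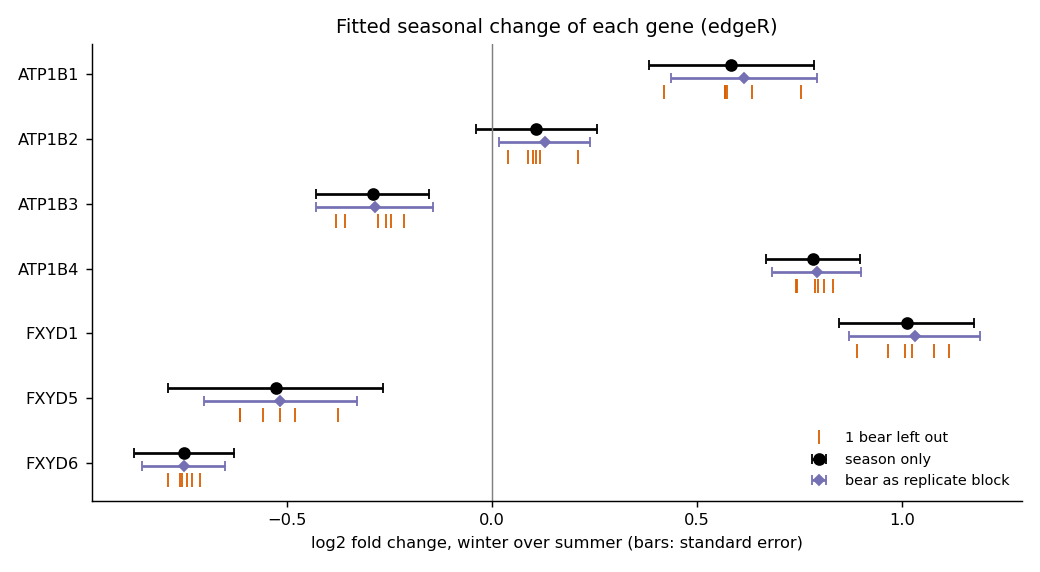
Log2 fold change of winter over summer for each gene in edgeR, with its standard error, for the fit with season alone (black), the fit with the bear as a replicate block (purple), and the fits that leave out 1 bear (orange ticks). No gene crosses 0 when a bear is left out, and ATP1B1 has the widest spread of ticks among the called genes, from 0.42 to 0.75.

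Markers of the cell types around the fibres were taken as lists. Their counts are read against all genes tested, of which 39.5% were called and 19.9% were called lower. Of the fibroblast genes tested, 6 of 9 were lower by edgeR, with a median log2 fold change of −1.85 against −0.00212 over all genes, and their summed level was 4407 to 11670 CPM in summer and 310.2 to 2055 CPM in winter. For endothelium 5 of 9 were lower and 1 higher (median −0.42, sums of 663.5 to 980.5 and 459.6 to 526.8 CPM), and for smooth muscle and pericytes 4 of 9 were lower (−0.48, 571.8 to 670.9 and 293 to 373.1 CPM). Macrophage and leukocyte genes were lower in 6 of 10 (−0.75, 115.9 to 165.5 and 50.01 to 90.8 CPM), adipocyte genes lower in 2 of 8 and higher in 1 (−0.82, 1509 to 2418 and 624.1 to 1609 CPM), and peripheral nerve genes lower in 3 of 10 (−0.56, 25.8 to 55.1 CPM, and 11.7 to 32.5 CPM in winter without bear 1509). In the adipocyte list, ADIPOQ and PLIN1 were not called by edgeR (adjusted p = 0.447 and 0.428). FXYD5 and FXYD6 moved in the direction of the medians of these lists, whose part in their levels was not tested. In biopsies of whole muscle, fewer cells of a type and less RNA per cell cannot be told apart.

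The fibres themselves are a known source of ATP1B4 and FXYD1. Of the 12 fibre genes, 4 were lower and the other 8 were not called (median −0.22), where 39.5% of all genes were called. Of 7 slow fibre genes 1 was lower and 6 were not called (median 0.07, sums of 11510 to 23710 CPM in summer and 13170 to 19950 CPM in winter), and of 8 fast fibre genes 3 were lower and 5 not called (median −0.42, 34250 to 70640 and 39910 to 49460 CPM). The lowest winter sum of the fast fibre genes was that of bear 1509, and without it the lowest was 44020 CPM. In the erythroid and skin lists only 2 genes each had enough reads for the test. The summed levels of both lists stayed at or below 2.54 CPM in every library.

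Together the 4 beta genes took 283.6 to 412.2 CPM in summer and 456.8 to 537.7 CPM in winter, and the 3 FXYD genes 131.7 to 245.5 and 282.3 to 451 CPM. The seasons did not overlap for either sum. The beta sum includes ATP1B4, whereas the levels of ATP1B1, ATP1B2 and ATP1B3 each overlapped between the seasons. No sum without ATP1B4 was made. Within the sums, the make-up shifted. The summer libraries gave ATP1B4 34.4% ± 4.3 of the beta reads and the winter libraries 43.2% ± 1.9 (SD, n = 6 bears), 8.79 percentage points more, with a gain in 6 of 6 bears. ATP1B2 fell from 44.8% ± 7.6 to 35.5% ± 4.4 and ATP1B3 from 3.31% ± 0.53 to 1.98% ± 0.32, each in 6 of 6 bears. By an exact two-sided paired permutation test over the 6 bears, each of these 3 shifts had p = 0.0312, the smallest that 6 pairs allow, and 0.0417 after adjustment over the 4 genes. ATP1B1 held 17.5% ± 5.0 and 19.3% ± 4.3, higher in 4 bears and lower in 2 (exact permutation p = 0.5). A share of reads depends on transcript length, which is the same in every library, and a gain in the share of 1 gene lowers the shares of the others.

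Among the FXYD reads, FXYD1 went from 85.4% ± 2.7 in summer to 95.2% ± 0.5 in winter (SD, n = 6 bears), while FXYD6 went from 12.3% ± 2.8 to 3.91% ± 0.41 and FXYD5 from 2.31% ± 0.46 to 0.883% ± 0.198. The seasons did not overlap for any of the 3 shares. Each shift had the same direction in 6 of 6 bears, with p = 0.0312 in the exact paired permutation test before and after adjustment over the 3 genes. In winter the share of FXYD1 lay between 94.6 and 95.9% in all bears, against 80.6 to 88.7% in summer.

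**Figure D3:**
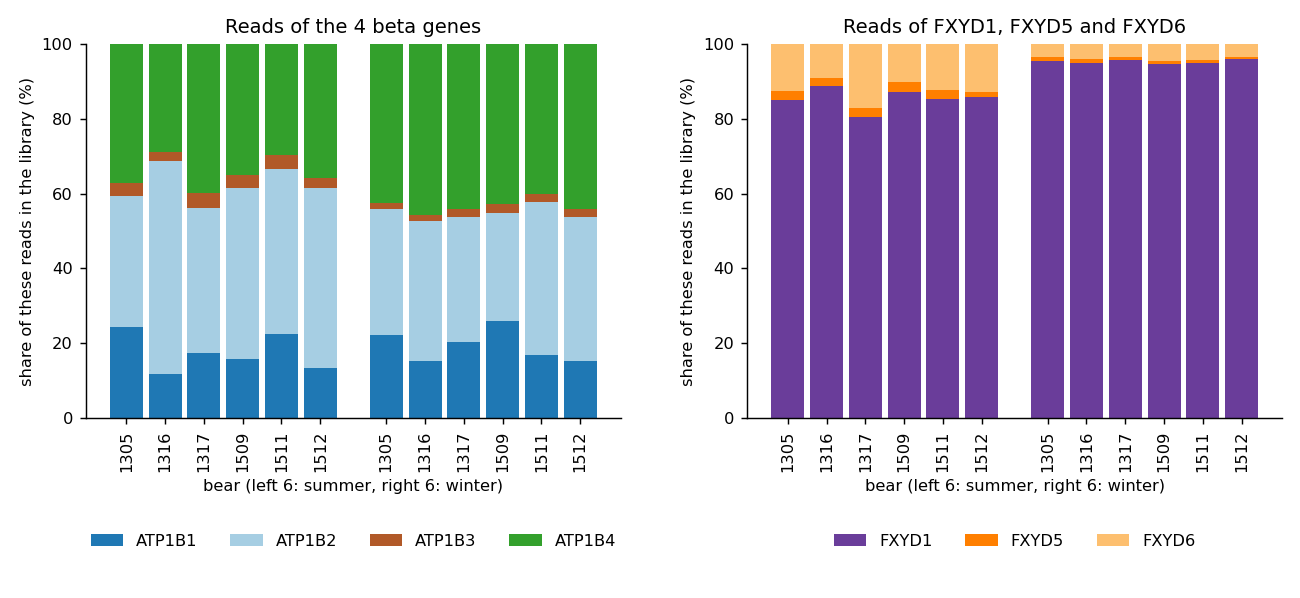
Stacked bars of the share of each gene in the reads of the 4 beta genes (left) and of FXYD1, FXYD5 and FXYD6 (right), 1 bar per library, summer bears on the left and winter bears on the right of each panel. ATP1B4 takes 28.8 to 39.9% of beta reads in summer and 40.0 to 45.7% in winter, and FXYD1 takes at least 94.6% of FXYD reads in every winter library.

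Ratios of 2 genes within a library do not depend on how libraries are scaled. The 21 pairs of the 7 genes were compared by the exact paired permutation test, with p-values adjusted over the 28 pairs that were planned. The widest shift was FXYD1 over FXYD6, by 1.78 ± 0.48 on the log2 scale (SD over 6 bears), followed by ATP1B4 over FXYD6 at 1.54 ± 0.22 and FXYD1 over FXYD5 at 1.54 ± 0.23. Against ATP1B2, ATP1B4 gained 0.66 ± 0.39 and FXYD1 gained 0.90 ± 0.40, in 6 of 6 bears. In all, 14 of the 21 pairs moved the same way in 6 of 6 bears, each with an exact permutation p of 0.0312, the smallest possible. After adjustment this became 0.0515, so no pair passed 0.05. ATP1B1 over ATP1B4 stood at −0.18 ± 0.43, lower in 4 of 6 bears (exact permutation p = 0.406), and ATP1B4 over FXYD1 at −0.24 ± 0.63, lower in 4 of 6 bears (exact permutation p = 0.406). For ATP1B1 over ATP1B2 the shift was 0.49 ± 0.63 with 4 of 6 bears higher (exact permutation p = 0.125).

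**Figure D4:**
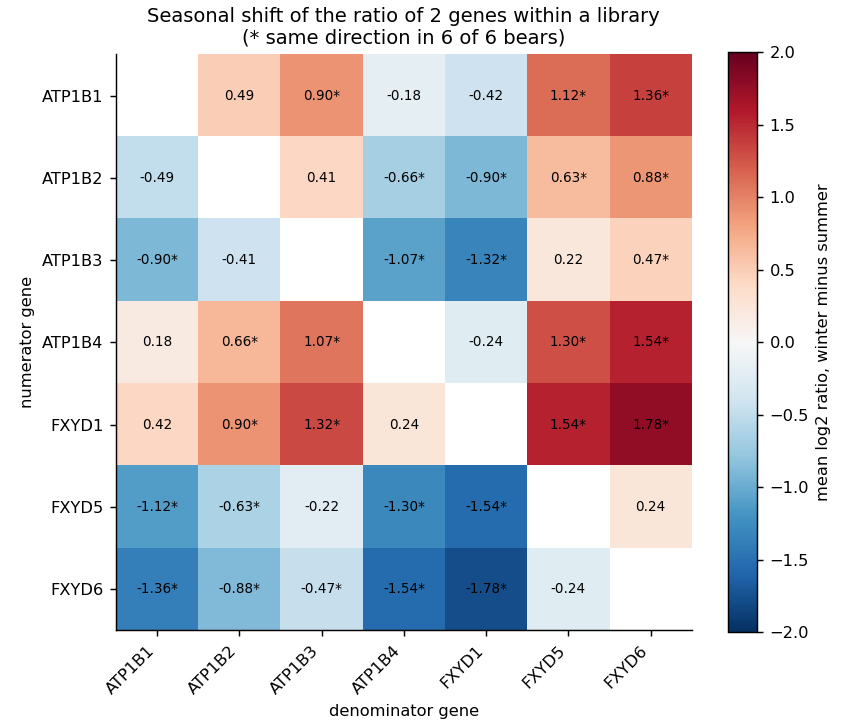
Mean winter-minus-summer difference of the log2 ratio of each row gene to each column gene within a library, over 6 bears, with red for a gain and blue for a loss of the row gene and an asterisk where 6 of 6 bears had 1 direction. The row of FXYD1 is red throughout, that of ATP1B4 is red except against FXYD1, and that of FXYD6 is blue throughout, down to −1.78 against FXYD1.

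The gene patterns most like each of the 7, by Pearson correlation of log2 CPM over the 12 libraries among 10338 named genes whose log2 CPM averaged 1 or more, are given as a description. The points share a season and, in pairs, a bear, so genes with a seasonal change can correlate through the season, and values with season means removed are printed beside them. For FXYD1 they were the ribosomal protein gene RPL29 (0.97, and 0.89 with season means removed), ANP32A (0.97 and 0.89) and SSR4, a part of the translocon of the endoplasmic reticulum (0.97 and 0.92). For ATP1B4 they were CCDC141 (0.97 and 0.88), the zinc finger gene ZNF12 (0.97 and 0.80) and YPEL2 (0.97 and 0.88). FXYD6 was most like CMKLR1, the chemerin receptor (0.96 and 0.80), MRTFA, a coactivator of serum response factor (0.96 and 0.80), and IL27RA, a cytokine receptor (0.95 and 0.74). The 3 genes most like ATP1B3 were CRK, SGMS2 and TWSG1 (0.90 to 0.91, and 0.88 to 0.89 with season means removed). Those most like FXYD5 were VWA1, a matrix protein gene, NMRAL1 and RHOG (0.89 to 0.91, and 0.85 to 0.88 with season means removed). For ATP1B1, the potassium channel gene KCNC1 followed BTG3 and CTNNAL1 (0.85 to 0.87, and 0.75 to 0.84 with season means removed), and KCNC1 dropped to 0.76 without bear 1509. ATP1B2 had the weakest likenesses, with GYPC, NTAN1 and TTC19 at 0.81 to 0.82, and at 0.80 to 0.85 with season means removed. GYPC dropped to 0.75 without bear 1509, while TTC19 was at 0.78 and NTAN1 at 0.81.

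ATP1A4, a catalytic subunit gene known from sperm, had 5 to 123 reads per library and was not called (log2 fold change 0.62, standard error 0.67, adjusted p = 0.484). Bear 1305 was its highest library in both seasons, with 81 and 123 reads.

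FXYD7, a brain FXYD protein, had 28 reads in the winter library of bear 1509 and at most 2 in each of the other 11 libraries. It was called higher in winter by edgeR (adjusted p = 0.0222), a call that rests on 1 library: without bear 1509 the other libraries held too few of its reads for a test. Of 11 nervous system genes, listed after this library was seen to stand apart, 10 were at their highest in it. SNAP25, of the synaptic release machinery, had 2464 reads in it and at most 4 in any other, and GAD1, the enzyme that makes GABA, had 133 and at most 3. Leaving out AQP4 and CAMK2A, which muscle fibres also express, the list summed to 203.5 CPM there and to 1.01 to 14.3 CPM in the other libraries. Peripheral nerve genes summed to 137.2 CPM in it. Neurons also use ATP1B1, and ATP1B1 had its highest level, 126.8 CPM, in this library. ATP1B2, known from glia, had its lowest winter level there, 139.8 CPM. FXYD6, known from brain, was at 12.7 CPM there, within its winter range of 12.3 to 17.9 CPM. The part of nerve cell transcripts in these levels was not tested, and the ATP1B1 difference without the library was 0.50 on the log2 scale.

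The remaining FXYD genes were scarce. FXYD2, the gamma subunit of kidney, had 0 to 7 reads per library and was not called (adjusted p = 0.154), and FXYD3 and FXYD4 had 1 and 12 reads over all libraries and were not tested. Of the NKAIN genes, whose products bind the beta subunit, NKAIN1 and NKAIN2 moved in opposite directions. NKAIN1 fell by 1.13 on the log2 scale (standard error 0.22, adjusted p = 0.00131), from 2.50 to 4.26 CPM in summer to 1.26 to 2.76 CPM in winter, in 6 of 6 bears. NKAIN2, with 13 to 63 reads per library, rose by 1.26 (standard error 0.24, adjusted p = 0.00109), also in 6 of 6 bears, and its seasons did not overlap.

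**Figure D5:**
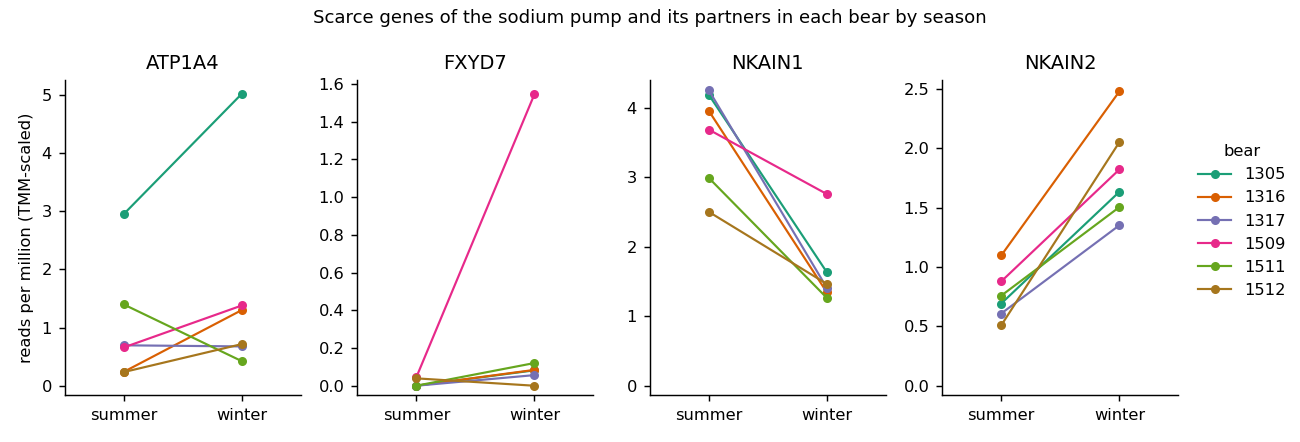
TMM-scaled CPM of ATP1A4, FXYD7, NKAIN1 and NKAIN2 in each library, with a coloured line joining the summer and winter library of a bear. FXYD7 is at 1.54 CPM in the winter library of bear 1509 and at most 0.120 CPM elsewhere, NKAIN1 fell and NKAIN2 rose in 6 of 6 bears, and bear 1305 has the highest ATP1A4 in both seasons.

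Genes that set the phosphorylation of phospholemman were taken as a list, of which 15 are reported here, 4 higher and 2 lower in winter, with a median log2 fold change of −0.07. Against the 39.5% of all genes called, 6 of 15 is close to the background. PRKAR2A, a regulatory subunit of protein kinase A, had the largest rise at 0.95 (standard error 0.22, adjusted p = 0.00360). The catalytic subunit PRKACA was higher by 0.39 (adjusted p = 0.0487), a call that was lost with library totals, without the filter and without bear 1305, 1316, 1509 or 1512 (adjusted p from 0.0705 to 0.177). Both catalytic subunits of protein phosphatase 2A rose in 6 of 6 bears, PPP2CA by 0.64 (adjusted p = 0.00166) and PPP2CB by 0.60 (adjusted p = 0.00157). The protein kinase C genes PRKCD and PRKCQ were lower by −0.74 (adjusted p = 0.0295) and −0.31 (adjusted p = 0.0290). PRKCD lost its call without bear 1317, 1509, 1511 or 1512 (adjusted p from 0.0701 to 0.0909). PRKCQ lost its own with the replicate block, in edgeR and in DESeq2, and without bear 1316, 1317 or 1512 (0.0557 to 0.122). PRKCA and PPP1R1A, the inhibitor of protein phosphatase 1, stood at 0.03 and −0.39 and were not called (adjusted p = 0.911 and 0.195).

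Other carriers that move sodium, and their kinases, made up a list of which 14 genes are reported here, with 2 higher and 3 lower (median −0.03). Of all genes tested, 39.5% were called. SLC8A1 and SLC8A3, sodium-calcium exchangers that run on the gradient the pump makes, fell in 6 of 6 bears, SLC8A1 by 0.62 (adjusted p = 0.0108) and SLC8A3 by 0.70 (adjusted p = 0.00308). SLC4A7, a sodium-bicarbonate cotransporter, rose by 0.92 (standard error 0.22, adjusted p = 0.00499). The potassium-chloride cotransporter SLC12A4 was lower at −0.39 (adjusted p = 0.0418) and the kinase WNK1 higher at 0.29 (adjusted p = 0.0463). SLC12A4 lost its call without the winter library of bear 1509 and whichever of bears 1305, 1316, 1317, 1509 and 1511 was left out (0.0545 to 0.122). WNK1 lost its call in 9 alternatives (0.0503 to 0.249), among them the replicate block in edgeR, library totals, no filter, the winter library of bear 1509 left out, and bear 1305, 1316, 1317, 1511 or 1512 left out. DESeq2 with the block kept the call of WNK1 (adjusted p = 0.0244). SGK1, a kinase that raises pump and channel numbers at the membrane, was at −0.33 (adjusted p = 0.263).

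Of the 8 tested genes that anchor the pump or share its membrane domains, 1 was higher and 3 were lower (median −0.32). These counts are read against the 39.5% of all genes called. CAV3, the caveolin of muscle fibres, rose by 0.81 (standard error 0.18, adjusted p = 0.00320), whereas CAV1, the caveolin of endothelium, fibroblasts and fat, fell by 0.80 (standard error 0.13, adjusted p = 0.000274), each in 6 of 6 bears. The spectrin genes SPTAN1 and SPTBN1 fell by 0.87 (adjusted p = 0.000860) and 0.38 (adjusted p = 0.0111). ANK3, ankyrin-G, was at −0.39 and missed the threshold (adjusted p = 0.0550, or 0.0405 with the replicate block).

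Around ATP1B4 at the nuclear envelope, 2 of 8 tested genes were higher and 2 lower (median 0.11), where 39.5% of all genes were called. SNW1, the partner of ATP1B4, rose from 39.6 ± 3.9 to 61.4 ± 3.8 CPM (SD, n = 6 bears), by 0.63 on the log2 scale (standard error 0.09, adjusted p = 0.000129), with no overlap between the seasons. SYNE1, which links nuclei to the cytoskeleton, rose by 0.67 (standard error 0.14, adjusted p = 0.00218). LMNB1, lamin B1, fell by 1.38 (standard error 0.27, adjusted p = 0.00138). LMNA, lamins A and C, was lower at −0.57 (adjusted p = 0.0463), a call lost without bear 1305, 1316, 1317 or 1509 and without the winter library of bear 1509 (0.0533 to 0.121). SMAD7, an inhibitor of TGF-β signalling, was at 0.11 and not called (adjusted p = 0.762).

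For 2 of the 7 genes another gene overlaps the span in the RefSeq annotation of the later assembly UrsArc2.0, NME7 at ATP1B1 and TFDP2 at ATP1B3. Reads were counted by strand, and the annotation used here does not give the strand of these neighbours. NME7 had 78 to 163 reads per library and a log2 fold change of 0.23 (adjusted p = 0.257), and TFDP2 had 159 to 311 reads and one of −0.13 (adjusted p = 0.446). FXYD1, FXYD7 and FXYD5 lie next to each other in that annotation, and FXYD6 lies next to FXYD2. LGI4, on the other side of FXYD1, was lower in winter at −0.73 (adjusted p = 0.0252), while FXYD1 rose.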

How the data were processed

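The authors made stranded libraries from poly-A RNA, aligned single-end reads with TopHat2 2.1.1 to ASM358476v1, a genome of the species, dropped alignments with more than 3 mismatches, and counted reads per gene on the opposite strand with featureCounts 1.6.2. The deposited values are these raw counts, and 0 columns were left unmatched to a sample. Genes with fewer than 30 reads over 12 libraries were filtered out, as in the study. Counts were scaled by TMM, and winter was compared with summer in edgeR 4.0.16 (R 4.3.3) by glmQLFit and glmQLFTest with season as the only term and Benjamini-Hochberg adjustment over 17290 genes. A gene was called at an adjusted p below 0.05. Log2 CPM used a prior count of 2, as did ratios of reads. Shares and ratios were tested by exact sign flips of the 6 differences. Intervals between bears are SDs.

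Alternatives were the bear as a replicate block, DESeq2 1.42.0 with and without it, limma 3.58.1 voom, RLE scaling, library totals, no filter, filterByExpr, each bear left out, and, chosen after seeing the data, the winter library of bear 1509 left out. The labels and methods pair the libraries: the same bear was biopsied in both seasons. Deviations from season means correlated at 0.0903 to 0.344 within a bear. Between bears they correlated at a median of −0.0634 and at most at 0.142. The lowest value within a bear, 0.0903, was that of bear 1509, whose highest value with another bear was 0.122. For that bear these correlations do not show the pairing, which rests on the labels and methods. The 7 genes and all lists were chosen with earlier results of these data known. Named genes were the 7, the called genes of the lists, and the 3 most similar genes of each member, and other named genes were chosen after their values were seen. The nervous system list was written after the data were opened. The fits were tested on simulated data. Libraries were run in 2 lanes, and which library went where is not given in the sources used here. Some genes of the lists, and the pairs planned with them, are not reported here. Sequences of the genes were not analysed here. The mouse data and protein blots of the study were not used here.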

Additional observations from a re-analysis of the deposited data

Results flagged for a closer look

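A library was looked at again where its log2 CPM stood apart from the other 5 of its season, by a gap to its nearest neighbour that passed Dixon's test for 6 values. Of 20 groups of 1 gene and season, over the 7 genes and 3 other sodium pump genes, 1 met this, where chance gives about 1 in 20 groups. FXYD7 was at 1.54 CPM in the winter library of bear 1509 against 0 to 0.120 CPM in the other winter libraries. The nervous system transcripts in that library are given with FXYD7 above.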

How the results depend on the processing

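ATP1B4, FXYD1 and FXYD6 kept direction and call in all 15 alternatives, and ATP1B2 and ATP1B3 kept direction and stayed uncalled. ATP1B1 was not called with library totals (log2 fold change 0.51) or without the winter library of bear 1509 (0.50). It ranged from 0.42 to 0.75 over the bears left out, and the fits that lost the call lay between 0.42 and 0.57. The replicate block, with the bear as its term, called FXYD5 in edgeR (−0.52), so 2 members were lower in place of 1, but not in DESeq2 (−0.51), which kept 1. Neither blocked fit changed the call of another member. Among the called list genes, the block ended the call of PRKCQ in both tools (−0.31 in edgeR) and that of WNK1 in edgeR alone (0.29). For FXYD7, DESeq2 with season alone gave no adjusted p and voom made no call (adjusted p = 0.157). Of 22 called list genes reported here, 15 kept the call in every alternative that gave an adjusted p. Tests of ratios and shares without a bear were not run, since 5 pairs cannot give a p below 0.0625. With a bear left out, every share kept its direction, and so did every ratio except ATP1B3 over FXYD5 (−0.0188 to 0.373 on the log2 scale). FXYD5, with 47 to 153 reads per library, had the fewest reads of the members. Its standard error in edgeR was also the largest among them, 0.26 with season alone and 0.19 with the block. The part of depth in this, as against differences between bears, was not tested.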

Other observations

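With season means removed, the 7 genes did not vary as a block between bears. Over the 12 libraries, FXYD1 and FXYD5 had the highest correlation (0.73), followed by ATP1B1 and ATP1B3 (0.64), FXYD5 and FXYD6 (0.58) and FXYD1 and FXYD6 (0.50). ATP1B4 and FXYD1, which rose together over the seasons (0.71 over all libraries), were at −0.46 once the season means were removed. These values come from 6 bears, and the libraries of a bear are not independent.

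In bear 1305 all 7 genes moved in the direction of the fit, and in each of the other 5 bears 6 of 7 did. The exception was ATP1B2 in bear 1316, FXYD5 in bear 1317, ATP1B3 in bears 1509 and 1512, and ATP1B1 in bear 1511.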
